A study of Rattus norvegicus with 6 samples.

Results

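The genes described are 10 carriers of amino acids in the proximal tubule of the kidney, together with the heavy chains that the light chains among them need: Slc6a18, Slc6a19, Slc6a20a, Slc1a1, Slc7a9, Slc7a13, Slc3a1, Slc7a7, Slc7a8 and Slc3a2. They were chosen by function, and each gene was found on the array through the RefSeq accession of its probes. Together they had 16 of the 61537 non-control probes, and each gene was represented by its probe of highest mean signal over the 6 arrays. All 10 were well above background on all 6 arrays, so each was among the 31193 transcripts tested. RNA came from the renal cortex of male Sprague-Dawley (Crl:CD(SD)) rats, purchased at 5 weeks of age. In 3 rats carbon tetrachloride was given at 100 mg/kg/day for 4 weeks, and 3 others were given corn oil over the same time. There was 1 single-colour array per rat, and precision is limited by this number of arrays. Carbon tetrachloride is the treatment in the title and the samples' own labels, though the design text of the series speaks of benzyl acetate. The samples are whole pieces of cortex, so fewer cells of a type and less RNA per cell cannot be told apart.

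The proximal tubule takes back nearly all amino acids that the glomerulus filters. Carriers of the brush border bring them into the cell with sodium or in exchange for other amino acids, and exchangers of the basolateral membrane pass them on to the blood. The Slc7 carriers described here are light chains, which reach the membrane when bound to a heavy chain of the Slc3 family. Inherited loss of several of these carriers in people leads to amino acids in the urine, as in cystinuria, Hartnup disorder and lysinuric protein intolerance. Carbon tetrachloride is a solvent best known for injury to the liver, where P450 enzymes convert it to radicals.

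RefSeq promoter windows (build GRCr8, 250 bases before to 50 after the start that the table uses) were found for 8 of the 10 genes, all but Slc7a13 and Slc1a1. The 250 bases before the start are shown for Slc6a19, Slc6a18 and Slc3a1. The first pair are relatives whose starts lie 21.9 kb apart on chromosome 1 with no other gene start of the table between them, and Slc3a1 encodes a heavy chain. Capitals mark the letters TATAAA on either strand, a TATA box spelling, in the Slc6a19 and Slc3a1 promoters. Upstream of them in Slc3a1, capitals also mark a site spelling of HNF4, a transcription factor of the proximal tubule. Slc6a18 is shown for comparison and has neither.
Slc6a19 promoter, GRCr8 chr1:31414494-31414743, plus strand: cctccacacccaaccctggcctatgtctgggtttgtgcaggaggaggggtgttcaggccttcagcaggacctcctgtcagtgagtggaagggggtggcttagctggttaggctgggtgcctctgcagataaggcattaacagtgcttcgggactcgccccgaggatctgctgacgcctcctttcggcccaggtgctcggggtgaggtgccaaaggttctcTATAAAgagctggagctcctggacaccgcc
Slc6a18 promoter, GRCr8 chr1:31436403-31436652, plus strand: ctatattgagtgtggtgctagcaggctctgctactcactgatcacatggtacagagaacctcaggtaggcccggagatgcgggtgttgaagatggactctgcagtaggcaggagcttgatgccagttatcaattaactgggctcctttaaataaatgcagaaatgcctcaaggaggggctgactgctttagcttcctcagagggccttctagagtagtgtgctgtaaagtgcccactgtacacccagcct
Slc3a1 promoter, GRCr8 chr6:15394750-15394999, minus strand: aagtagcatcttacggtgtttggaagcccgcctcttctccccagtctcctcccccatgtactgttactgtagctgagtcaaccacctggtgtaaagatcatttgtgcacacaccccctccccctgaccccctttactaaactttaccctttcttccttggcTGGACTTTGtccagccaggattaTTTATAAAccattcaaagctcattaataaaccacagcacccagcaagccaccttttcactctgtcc

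All spellings were searched on both strands of the 33469 promoter windows of the table. The TATA box, searched as TATAAA, lay 30 bases before the start of Slc6a19 and was not found in the window of its neighbour Slc6a18. It lay 64 bases before the start of Slc3a1 and 247 bases before that of Slc3a2, and 14.2% of all windows held it. The HNF4 site CAAAGTCCA lay 89 bases before the start of Slc3a1 on the antisense strand, and 0.391% of all windows held it. A related HNF4 spelling, CAAAGGTCA, was in 0 of the 8. The amino acid response element TGATGCAAT was also in 0 of the 8, that of Slc3a2 included, against 0.188% of all windows. Of the 6 spellings reported here, the shorter or relaxed forms of these sites added no further gene. These matches describe letters only, the spellings were picked with the expression values known, and the starts used for Slc6a18 and Slc3a1 lie inside the annotated gene, so that other transcripts of both begin further upstream.

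Setting carbon tetrachloride against corn oil asks whether the treatment altered the transcripts by which the tubule recovers amino acids. For 9 of the 10 genes the values of the groups overlapped, and no difference was called by the test used. None of the 10 passed an adjusted p of 0.05 in limma (adjusted p between 0.798 and 0.996), where 0.00321% of all transcripts passed, and 0 of the 10 had an unadjusted p under 0.05, where 6.3% of all transcripts did. The log2 change was above 0 for 9 of the 10, where it was above 0 for 52.3% of all transcripts, but 2 of these 9 were at 0.00 to 2 decimals. The members' log2 changes had a median of 0.08 and ran from -0.02 for Slc7a8 to 0.37 for Slc7a13, beside a median of 0.01 over all transcripts. Within slide 1, which held all arrays but carbon tetrachloride replicate 3, the members' median was 0.03. There carbon tetrachloride arrays lay in array row 2 and corn oil arrays in row 1, so treatment and row cannot be told apart.

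How large a change the arrays could have missed follows from the intervals. The 95% interval of the log2 change included 0 for all 10 genes. It excluded both a 2-fold rise and a 2-fold fall for 9 genes, all but Slc7a13, and both a 1.5-fold rise and a 1.5-fold fall for 8, all but Slc7a13 and Slc6a20a. The intervals reached a median of 0.28 to either side on the log2 scale, beside 0.27 over all transcripts.

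**Figure D1:**
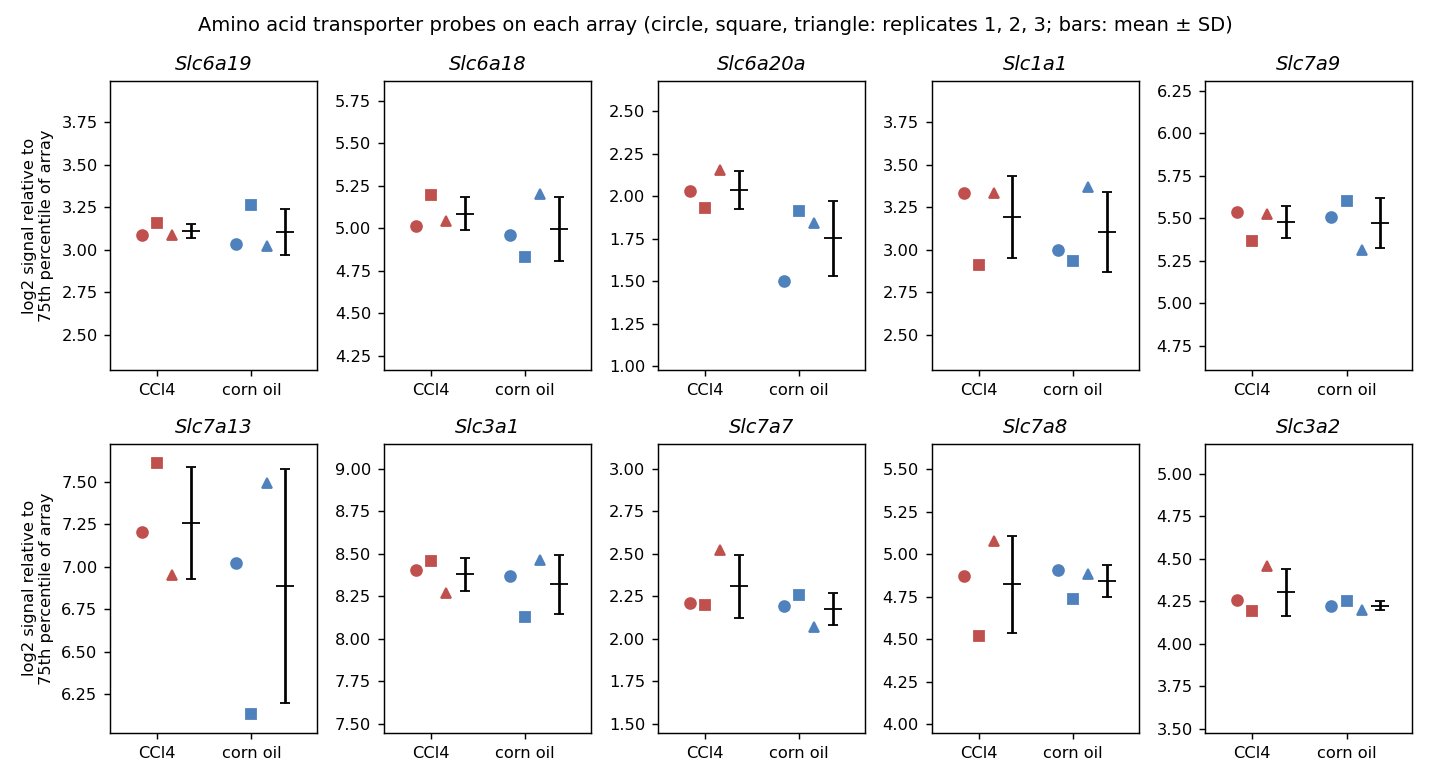
Signal of the representative probe of each of the 10 genes on each array, as log2 relative to the array's 75th percentile. In each panel carbon tetrachloride stands left and corn oil right, symbols give the replicate and bars the mean ± SD of 3 arrays; all panels span the same number of log2 units, so that the wide spread of Slc7a13 and the narrow one of Slc6a19 and Slc3a2 can be compared.

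Among the sodium-driven carriers of the brush border, Slc6a19 encodes the main carrier of neutral amino acids, the one lost in Hartnup disorder. Its log2 signal relative to the 75th percentile was 3.09, 3.16 and 3.09 on carbon tetrachloride arrays 1 to 3, against 3.04, 3.26 and 3.02 on corn oil arrays 1 to 3. The carbon tetrachloride values lay inside the corn oil range. The log2 change was 0.00 (95% interval -0.21 to 0.22, adjusted p = 0.996 in limma), among the smallest measured: 2.22% of all transcripts had a smaller one in either direction.

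Slc6a18, its neighbour on the chromosome, encodes a carrier of glycine and other neutral amino acids that in the mouse acts further along the tubule. It had 5.02, 5.20 and 5.05 after carbon tetrachloride, against 4.96, 4.83 and 5.20 after corn oil. The groups overlapped, with the highest and the lowest value both on corn oil arrays. Its log2 change was 0.09 (95% interval -0.20 to 0.37, adjusted p = 0.899 in limma). All 3 probes of the gene gave a similar log2 change, at 0.09, 0.08 and 0.07, and on each of them corn oil replicate 2 was the lowest array. Without that array the log2 change of the brightest probe was 0.0043, and without corn oil replicate 3 it was 0.19.

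Slc6a20a encodes the carrier of proline and other imino acids. It was the 1 gene of the 10 whose groups did not overlap, where 12.8% of all transcripts had groups that did not overlap and 7.55% had them so with carbon tetrachloride higher. Its values were 2.03, 1.93 and 2.15 after carbon tetrachloride, against 1.50, 1.91 and 1.85 after corn oil. The lowest carbon tetrachloride array was barely above the highest corn oil array, and corn oil replicate 1 lay below all others. The log2 change was 0.29 ± 0.13 (SE, n = 3 per group), or 1.22-fold (95% interval 0.98 to 1.52), with an adjusted p of 0.798 in limma. Without corn oil replicate 1 it was 0.16, and with scaling by the median or with the mean of both probes the groups overlapped. The dimmer probe of the gene had -1.06, -1.37 and -1.12 after carbon tetrachloride, against -1.84, -1.08 and -1.08 after corn oil. On that probe too the low array was corn oil replicate 1, and the other corn oil arrays lay among the carbon tetrachloride arrays. Its log2 change was 0.15 ± 0.23 (SE).

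Slc1a1 encodes the brush border carrier of glutamate and aspartate. It had 3.33, 2.91 and 3.33 after carbon tetrachloride, against 3.00, 2.94 and 3.37 after corn oil. Both groups spanned nearly the same range, with an SD of 0.24 and 0.23. Its log2 change was 0.09 (95% interval -0.33 to 0.51, adjusted p = 0.932 in limma), and without single arrays it ran from 0.0077 (without corn oil replicate 2) to 0.23 (without carbon tetrachloride replicate 2).

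The brush border also holds exchangers built on the heavy chain that Slc3a1 encodes. Slc7a9 encodes the light chain that with it takes up cystine and the cationic amino acids, and loss of either causes cystinuria in people. Slc7a13 encodes another light chain of the same heavy chain, a carrier of aspartate, glutamate and cystine in the late proximal tubule of the mouse. Slc3a1 had 8.41, 8.46 and 8.27 after carbon tetrachloride, against 8.37, 8.13 and 8.46 after corn oil, and the groups overlapped. Its log2 change was 0.06 (95% interval -0.21 to 0.33, adjusted p = 0.933 in limma), and its other probe gave 0.07.

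Slc7a9 had 5.54, 5.37 and 5.53 after carbon tetrachloride, against 5.51, 5.60 and 5.31 after corn oil. Both the highest and the lowest value were again on corn oil arrays, and the log2 change was 0.00 (95% interval -0.24 to 0.25, adjusted p = 0.995 in limma). Slc7a13 varied most between arrays of a group. Its values were 7.21, 7.61 and 6.95 after carbon tetrachloride, against 7.02, 6.14 and 7.49 after corn oil. The corn oil arrays covered a wider range than the carbon tetrachloride arrays, and their SD of 0.69 was larger than that of 97.1% of all transcripts. The log2 change of 0.37 ± 0.37 (SE, n = 3 per group) had a 95% interval from -0.53 to 1.27 and an adjusted p of 0.866 in limma. It depended on single arrays: without corn oil replicate 2 it was -0.0030, without carbon tetrachloride replicate 2 it was 0.19, and without corn oil replicate 3 it was 0.68. The dimmer probe of Slc7a13 gave 4.26, 4.60 and 4.09 after carbon tetrachloride, against 3.93, 3.28 and 4.52 after corn oil. That is the same order of arrays within each group as on the brighter probe, and a log2 change of 0.41 ± 0.32 (SE).

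On the basolateral side the heavy chain is the one that Slc3a2 encodes, the CD98 heavy chain, which is found in most tissues. Slc3a2 had 4.26, 4.19 and 4.46 after carbon tetrachloride, against 4.22, 4.25 and 4.20 after corn oil. Its corn oil values were close to each other (SD 0.03), while carbon tetrachloride replicate 3 stood above all other arrays. Over all arrays the log2 change was 0.08 (95% interval -0.14 to 0.30, adjusted p = 0.881 in limma), and within slide 1, without that array, it was 0.0020.

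Slc7a7 encodes the light chain that releases cationic amino acids to the blood, the one lost in lysinuric protein intolerance. It had 2.21, 2.20 and 2.52 after carbon tetrachloride, against 2.19, 2.26 and 2.07 after corn oil. Carbon tetrachloride replicate 3 was again the highest array, and the other carbon tetrachloride arrays lay inside the corn oil range. A log2 change of 0.14 was fitted (95% interval -0.14 to 0.42, adjusted p = 0.849 in limma), and within slide 1 it was 0.03.

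Slc7a8 encodes the light chain that exchanges neutral amino acids at the same membrane. It had 4.87, 4.52 and 5.08 after carbon tetrachloride, against 4.91, 4.73 and 4.89 after corn oil. The highest and the lowest value were both on carbon tetrachloride arrays. For this gene the log2 change was -0.02 (95% interval -0.40 to 0.36, adjusted p = 0.990 in limma), its other probe gave -0.07, and within slide 1 the change was -0.15. Array 3 of the carbon tetrachloride group was the highest of the 6 for 4 of the 10 genes, Slc6a20a, Slc7a7, Slc7a8 and Slc3a2, and it was the highest for 20.5% of all transcripts. This array lay alone on slide 2 and had its own scan, so for it the rat and the slide cannot be told apart.

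**Figure D2:**
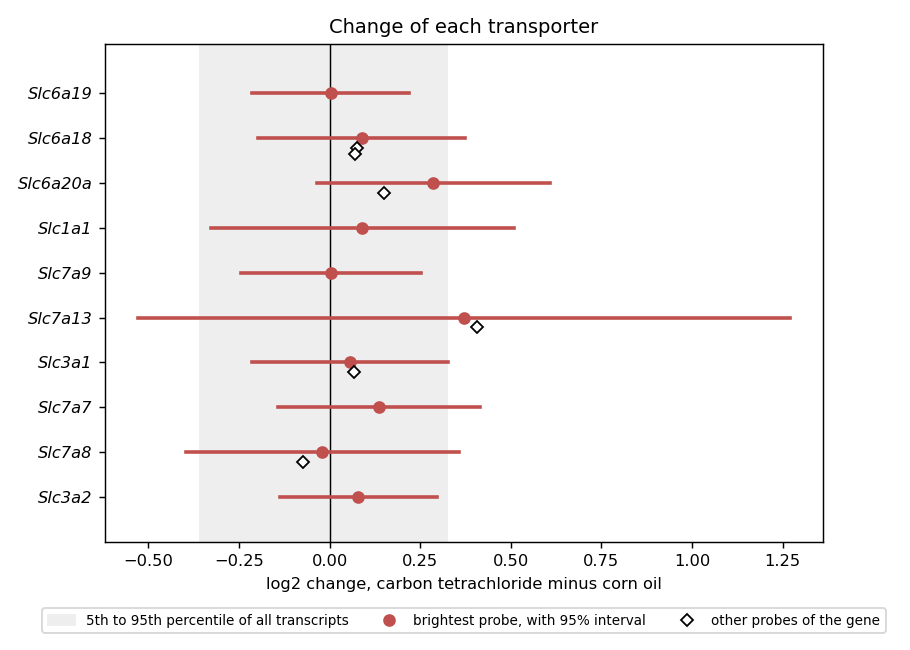
Log2 change of each gene, carbon tetrachloride minus corn oil, for the representative probe with its 95% interval (circle and bar) and for the gene's other probes (diamonds). The grey band spans the 5th to the 95th percentile of the log2 changes of all 31193 transcripts, -0.36 to 0.32; every interval includes 0, and 9 of the 10 circles lie in the band, with Slc7a13 at 0.37 outside it.

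The differences between arrays of 1 group were not the same for all 10 genes. With 1 array per rat, the rat and its array cannot be told apart. In these values, which were examined after they were seen, corn oil replicate 2 was the lowest of all 6 arrays for 3 genes, Slc7a13, Slc3a1 and Slc6a18, and the highest for 2, Slc6a19 and Slc7a9. It was the lowest array for 18.7% and the highest for 12.4% of all transcripts. Against the corn oil mean, this array lay at -0.75 for Slc7a13, -0.19 for Slc3a1 and -0.17 for Slc6a18, but at 0.16 for Slc6a19 and 0.13 for Slc7a9 (log2). Corn oil replicate 3 went the other way, at 0.61, 0.14 and 0.21 for the first set and at -0.08 and -0.16 for the second. Each gene's differences are taken from the mean of these same corn oil arrays. An opposite side for the other corn oil arrays is therefore in part fixed by the choice of sets. The neighbours Slc6a18 and Slc6a19, whose promoters are shown above, are thus in different sets.

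Some genes outside the 10, picked after their values were seen, had the same extreme array as either set. Slc22a7, an organic anion carrier listed as a late proximal tubule marker, lay at -0.23, 0.44 and 0.04 against the corn oil mean after carbon tetrachloride, and at -0.17, -0.78 and 0.95 after corn oil. Slc7a12, a relative of Slc7a13, lay at -0.50, 0.87 and -0.13 after carbon tetrachloride, and at 0.42, -0.999 and 0.58 after corn oil. Both had corn oil replicate 2 as their lowest array, as the first set had. Slc5a2, the glucose carrier of the early tubule, lay at 0.0046, -0.12 and 0.14 after carbon tetrachloride, and at -0.09, 0.16 and -0.07 after corn oil. Slc5a12, a lactate carrier listed as an early marker, lay at -0.25, -0.32 and -0.04 after carbon tetrachloride, and at -0.02, 0.21 and -0.19 after corn oil. Both had corn oil replicate 2 as their highest array.

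The marker lists as wholes moved less evenly. The 4 late markers averaged -0.18, 0.40 and 0.47 against the corn oil mean after carbon tetrachloride, and -0.17, -0.20 and 0.37 after corn oil. Acsm3 weighed most in this average, at -0.28, 1.08 and 2.285 after carbon tetrachloride, and at -0.62, -0.22 and 0.835 after corn oil. On carbon tetrachloride replicate 3 the other late markers lay at -0.51 for Slc5a1, 0.06 for Cyp7b1 and 0.04 for Slc22a7. Of the 4 late markers, Slc22a7 alone had corn oil replicate 2 as its lowest array. Slc5a1 and Cyp7b1 went the other way among corn oil arrays, at 0.08 and 0.12 on replicate 2 and at -0.17 and -0.15 on replicate 3, as the second set did. The 4 early markers averaged -0.03, -0.11 and 0.12 after carbon tetrachloride, and -0.01, 0.12 and -0.11 after corn oil. Slc22a6 and Slc22a8, the early markers not described above, both had carbon tetrachloride replicate 3 and not corn oil replicate 2 as their highest array. The part of such marker levels in the values of the 10 genes was not tested, nor was cross-hybridisation between relatives, since probe sequences were not used here.

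**Figure D3:**
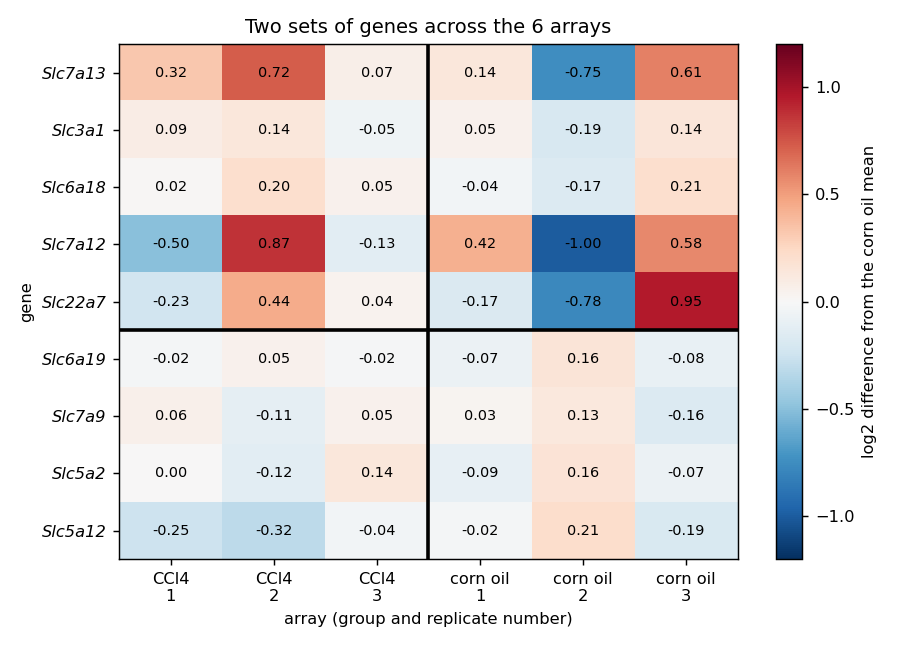
Log2 difference from the corn oil mean for 9 genes (rows) on each of the 6 arrays (columns, carbon tetrachloride left of corn oil), with red for higher and blue for lower values. Above the line stand genes with corn oil replicate 2 as their lowest array, below it genes with that array as their highest; the 9 genes were picked after their values were seen.

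Transcripts of proteins that bring the Slc6 carriers to the membrane were measured too. Cltrn encodes collectrin, which in the mouse kidney is needed for Slc6a19 and Slc6a18 to reach the brush border. It had 7.13, 7.25 and 7.31 after carbon tetrachloride, against 7.38, 7.52 and 7.33 after corn oil. The groups did not overlap, as was so with carbon tetrachloride lower for 5.28% of all transcripts, though the nearest arrays were only just apart. The log2 change was -0.18 ± 0.09 (SE, n = 3 per group), or 0.88-fold (95% interval 0.76 to 1.02), with an adjusted p of 0.798 in limma. Anpep, the brush border aminopeptidase N, had a log2 change of 0.15 ± 0.25, and -0.06 within slide 1. Its groups overlapped, and of these 2 genes 0 passed the threshold in limma and 0 had an unadjusted p under 0.05. Over all transcripts the shares were 0.00321% and 6.3%.

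Hnf4a is the gene of the factor whose site spelling is marked in the Slc3a1 promoter, where binding was not tested. It had 3.96, 3.81 and 3.85 after carbon tetrachloride, against 3.89, 3.90 and 3.80 after corn oil. The groups overlapped, with a log2 change of 0.01 ± 0.07 and an adjusted p of 0.992 in limma.

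The wider set of amino acid and peptide carriers held 33 genes, of which 24 were tested. In limma 0 passed the threshold, where 0.00321% of all transcripts did, and 2 had an unadjusted p under 0.05, where 6.3% did. These 2 were Slc7a6 and Slc36a1. Over the 24, log2 changes were above 0 for 12 and below 0 for 12, with a median of 0.02, beside 0.01 over all transcripts. Groups did not overlap for 2 of the 24, where 12.8% of all transcripts had groups that did not overlap. Slc7a6, another light chain of the CD98 heavy chain, had -1.94, -1.96 and -1.95 after carbon tetrachloride, against -2.19, -2.23 and -2.30 after corn oil. The carbon tetrachloride arrays were nearly equal and all above the corn oil arrays, with a log2 change of 0.29 ± 0.06, or 1.22-fold (95% interval of the log2 change 0.14 to 0.45), and an adjusted p of 0.689 in limma. Slc36a1, a proton-driven carrier of small amino acids at the lysosome, had -2.82, -2.78 and -2.82 after carbon tetrachloride, against -3.04, -2.97 and -3.09 after corn oil. Its groups too were apart, with a log2 change of 0.23 ± 0.07 and an adjusted p of 0.756 in limma. With normexp background correction the log2 change of Slc36a1 was as low as 0.05.

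Slc15a2 encodes the high-affinity carrier of small peptides in the late proximal tubule. It had 1.14, 0.88 and 1.03 after carbon tetrachloride, against 0.42, -0.04 and 0.99 after corn oil. Corn oil replicate 3 lay among the carbon tetrachloride arrays and corn oil replicate 2 was again the lowest array. The log2 change was 0.56 ± 0.26, with an adjusted p of 0.798 in limma, and without single arrays it ran between 0.31 and 0.82, the lowest without corn oil replicate 2.

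**Figure D4:**
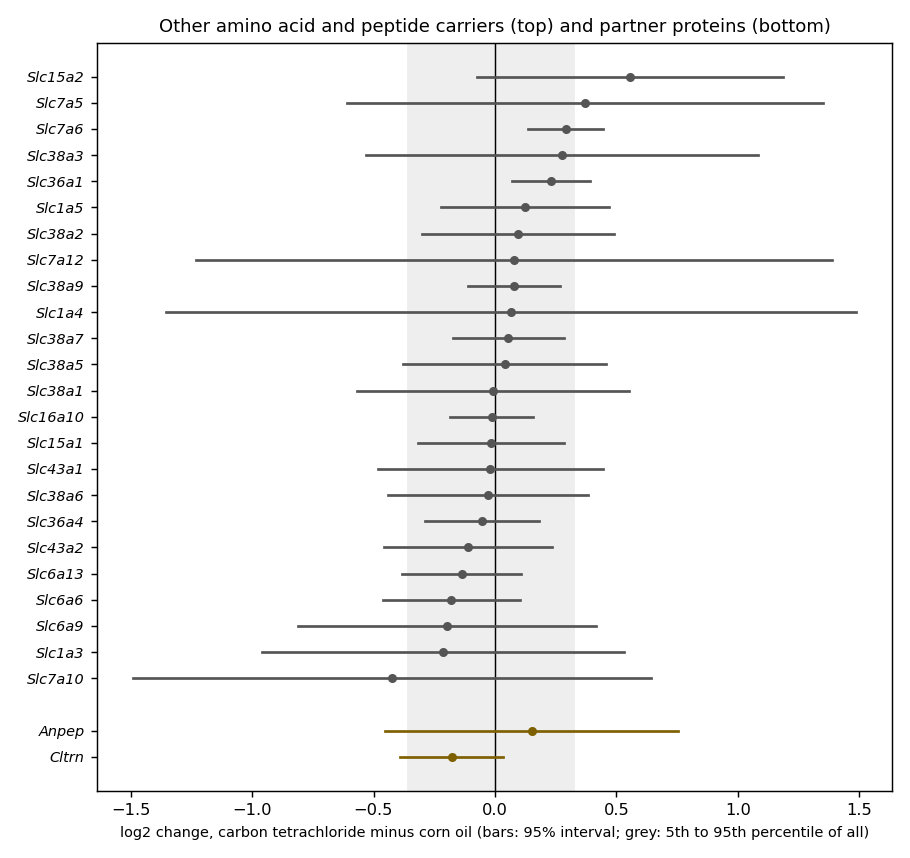
Log2 change, carbon tetrachloride minus corn oil, with its 95% interval for the 24 tested other amino acid and peptide carriers (top) and the 2 partner proteins (bottom), sorted by size. The grey band spans the 5th to the 95th percentile of all transcripts; the intervals of Slc7a6 and Slc36a1 lie above 0, and no gene passed an adjusted p of 0.05.

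Enzymes that make or break down amino acids in the tubule were likewise not called. Of 22 genes 20 were tested, 11 with a log2 change above 0 and 9 below, with a median of 0.0076. In limma 0 passed the threshold, where 0.00321% of all transcripts did, and 0 had an unadjusted p under 0.05, where 6.3% did. The groups of 2 of the 20 did not overlap, where 12.8% of all transcripts had groups that did not overlap. Those of smallest p were the alanine aminotransferase gene Gpt at 0.22 ± 0.11, Arg2, the mitochondrial arginase, at 0.49 ± 0.26, and Kmo, which acts in the breakdown of tryptophan, at -0.35 ± 0.20 (log2 change ± SE, n = 3 per group). Their limma adjusted p lay between 0.798 and 0.825. For Arg2 the log2 change was 0.24 without corn oil replicate 2 and 0.75 without corn oil replicate 3. Kmo had 2.37, 1.72 and 2.47 after carbon tetrachloride, against 2.57, 2.51 and 2.53 after corn oil. Its groups did not overlap, with carbon tetrachloride replicate 2 far below the rest, and without that array the log2 change was -0.12.

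The tissue label was checked against markers. All 5 general, 4 early and 4 late markers of the proximal tubule were well above background on all 6 arrays, and the means of the 5 general markers lay at -0.03, -0.0039 and 0.06 against the corn oil mean after carbon tetrachloride, and at 0.04, 0.05 and -0.09 after corn oil. Markers of other cell types were present as well: all 4 of podocytes, 4 of the loop and distal tubule and 4 of the collecting duct were well above background on all arrays. Of 6 leukocyte markers 5 were well above background on all 6 arrays, and Cd3e, with values from -6.14 to -4.25, was so on 5 arrays. In limma 0 of the 6 passed the threshold and 3 had an unadjusted p under 0.05, the T cell genes Cd8b, Cd3g and Cd3e. The log2 changes of these 3 were -0.98, -1.01 and -1.11, and their groups did not overlap. Over all transcripts, 0.00321% passed the threshold and 6.3% had an unadjusted p under 0.05 in limma, and 12.8% had groups that did not overlap. The log2 changes of Ptprc, Cd68 and Csf1r were -0.27, -0.11 and -0.0053, with groups that overlapped. The mean of the 6 lay at -0.67, -0.53 and -0.54 after carbon tetrachloride, and at 0.12, 0.12 and -0.24 after corn oil, and the part of these markers in the carriers' values was not tested. The share of probes well above background was between 68.5% and 72.1%, with corn oil replicate 2 the lowest.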

How the data were processed

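Cy3-labelled RNA of 6 rats was hybridised to 1-colour Agilent arrays. The scanner files give spot intensity as deposited by the authors, extracted with Agilent Feature Extraction 10.7.1.1 per the file headers (10.7 per the submitters' processing notes). The deposited value table is a linear intensity as well: a column equals that array's processed signal over a constant of 1015 to 1092, with medians of 0.116, 0.115 and 0.111 for carbon tetrachloride replicates 1 to 3 and 0.118, 0.111 and 0.114 for corn oil replicates 1 to 3. Scale, centring and direction of the table follow from this, so none stays unknown.

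The 75th percentile of each array's log2 processed signal was subtracted to give the main values, without the 1439 control spots and the 0 to 25 spots per array with an outlier flag. Tested were 42400 of 61537 probes, those well above background on every array of either group. Accessions without version were named through a RefSeq table of GRCr8, used for names, which matched 28206 probes (45.8%). Each gene or unmatched accession was represented by its brightest tested probe. Differences were tested two-sided with lmFit and eBayes of limma 3.58.1 (R 4.3.3), with Benjamini-Hochberg adjustment over all 31193 transcripts and a threshold of 0.05. The code was tested on simulated data. The design text calls the rats biological replicates.

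The members, the lists and the motifs were chosen with earlier results of these data known. Named are all members, partner proteins and the HNF4 gene tested, and of other carriers and enzymes those past the threshold or else the 3 of smallest p. Some genes of the lists are not reported here. A few genes were picked after their values were seen, as the text says. The plan named raw spot signal, for which the median spot and median local background signals were used. Carbon tetrachloride replicate 3 lay on slide 2 in scan 2, and all other arrays on slide 1 in scan 1. On slide 1 carbon tetrachloride arrays were in array row 2 and corn oil arrays in row 1. Treatment and array row therefore cannot be told apart in the values given within slide 1. Arrays correlated at 0.9914 to 0.9928 within carbon tetrachloride and 0.9917 to 0.9932 within corn oil, and at 0.9907 to 0.9937 between the groups. Same-numbered arrays of the groups did not deviate together (correlations between -0.097 and -0.023), so the numbers were not taken to pair rats.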

Additional observations from a re-analysis of the deposited data

How the results depend on the processing

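Of the 17 alternatives, none brought a carrier, another amino acid carrier, a partner protein, an enzyme or Hnf4a past the threshold, and the lowest adjusted p of the 10 carriers was 0.706 in limma. Of the 17, 4 leave every log2 change of these genes as it was (the other filters, the trended robust fit and the replicate block), and the slide as a block gives the same values as leaving out carbon tetrachloride replicate 3. Over the other 12, 13 of 120 values of the 10 genes turned direction and the rest did not. For 5 genes, Slc6a18, Slc6a20a, Slc7a7, Slc3a2 and Slc1a1, none turned, but without single arrays the lowest was 0.0043, 0.16, 0.03, 0.0020 and 0.0077, in this order. The turned values were all uncalled: Slc7a8 had 0.00035 and 0.010 with normexp and 75th percentile or quantile scaling, and Slc7a9 had -0.020 with the slide as a block. Hnf4a had -0.042 and -0.030 with these normexp settings and -0.013 with the mean of probes, and Anpep had -0.057 with the slide as a block. Without single arrays the log2 change ran from -0.039 to 0.082 for Slc6a19, -0.15 to 0.13 for Slc7a8, -0.076 to 0.069 for Slc7a9, -0.0030 to 0.68 for Slc7a13, -0.038 to 0.13 for Slc3a1, -0.057 to 0.34 for Anpep and -0.034 to 0.040 for Hnf4a. For Slc7a13 and Slc3a1 the turn came without corn oil replicate 2, and for Anpep without carbon tetrachloride replicate 3. The count of carriers with groups that do not overlap, 1 in the main values, was 0 with scaling by the median and 0 with the mean of probes, and without single arrays it ran from 1 to 3: 2 without carbon tetrachloride replicate 2 or corn oil replicate 3, and 3 without corn oil replicate 2, where fewer arrays make separation easier. Over all transcripts 1 passed the threshold; the count was 0 with normexp and either scaling, with no filter or a filter on all arrays, with a trended robust fit, with the replicate number as a block (replicate block) and with the slide as a block, and without single arrays it ran from 0 to 2: 0 without carbon tetrachloride replicate 2 or 3 or corn oil replicate 1, and 2 without corn oil replicate 3. The number at an unadjusted p under 0.05 ran from 1520 to 2323 transcripts. The replicate block, whose numbers only name the rats, changed no call among the genes named. The cause of these shifts was not tested. All fits rest on at most 3 arrays a group. The interval of Slc7a6 lay clear of 0, as is so at an unadjusted p under 0.05 in limma, which 6.3% of all transcripts had. Slc7a6 did not pass the threshold after adjustment.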
